A study of Danio rerio with 6 samples.

Results

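The claudin and tight junction genes were the 40 of 14612 genes in a zebrafish (Danio rerio) count table whose symbol begins with cldn, tjp, ocln, marveld, f11r or cgn, each symbol taken once. There were 29 claudins and 11 other genes, and 38 of the 40 passed the filter on low counts, as did 13336 of all genes. RNA was sequenced from whole embryos at 7 days post fertilization (dpf), 33 to 35 animals to a pool. The control group was 3 pools held in embryo medium, and the nucleotide group was 3 pools held in embryo medium with dissolved nucleotides at 10 µM. The labels give no genotype or strain and do not say which nucleotides were used. In the table the exposed columns are headed with carbon monoxide, and they were assigned by the library name that the labels give for the nucleotide pools. This conflict was not resolved, so "nucleotide" below means the libraries labelled so.

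Tight junctions seal the space between neighbouring epithelial cells near their apical surface. Claudins are small membrane proteins whose strands set how tight the seal is and, for some, form pores for ions. Occludin and its MARVEL-domain relatives and the junctional adhesion molecule F11R also span the membrane, while the zonula occludens proteins (tjp genes) and cingulin bind them to the actin skeleton from inside. A fish larva in fresh water relies on such seals in its skin, gut, kidney and brain vessels.

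Levels are given as CPM, the count of a gene as a part of its library total after TMM scaling (a trimmed mean of log ratios between libraries). Library totals ran from 18690465 to 23066970 counts in control pools and from 25792829 to 31556366 in nucleotide pools, without overlap. The TMM factors did not overlap either, at 1.033 to 1.063 in control pools against 0.9128 to 0.9985 in nucleotide pools. Depth and scaling therefore differed along with the group. Tested members had mean counts between 11.3 and 6609 per library. Skeletal muscle genes took 4.245% to 5.22% of counts in control pools against 5.416% to 8.546% in nucleotide pools. With the replicate block described below 17 of 23 of these muscle genes rose, against 10.7% of all tested genes. Their part in the results below was not tested. Samples are whole animals, so fewer cells of a type and less RNA per cell cannot be told apart. Separate clutches are not stated in the labels, so the p-values reflect how these pools vary, which may be technical.

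No claudin or tight junction gene passed an adjusted p of 0.05 in edgeR's quasi-likelihood test of the groups alone, with 0 of 38 higher and 0 lower. Over all tested genes 0.937% were higher and 0.0525% lower. At an unadjusted p under 0.05, 4 members were higher and 3 lower, against 8.3% and 6.19% of all tested genes, and DESeq2 called 1 member, cldne. The libraries with the same number in both groups deviated together, as detailed below. The labels state no pairs, so this pairing was taken from the same counts. The p-values with the block do not account for that choice. With the number as a block 9 members passed. These were cldne, cldnh, cldn15b, oclnb and f11r, which rose, and genes that fell, among them tjp3, cldn1 and oclna. The 5 rises and 4 falls stand against 10.7% and 8.38% of all tested genes with the block, and as 13.2% and 10.5% of the members they lay near those shares. Below, "rose" and "fell" are used of the fit with the block, and "the unblocked fit" means the one on the groups alone.

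The differences were small. Among the 9 genes they ran from 0.204 to 0.488 in size on the log2 scale, and 31 of the 38 members differed by less than 0.3 in the unblocked fit. No member reached a 2-fold difference. The median log2 difference was 0.081 over the 38 members and -0.014 over all tested genes. The sign of the member median depended on the scaling, since with library totals alone it was -0.044, while the median of all genes moved to -0.14. None of the 9 genes changed sign under any of the scalings, with the filter off or in DESeq2, whereas 10 of the 38 members did with library totals.

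**Figure D1:**
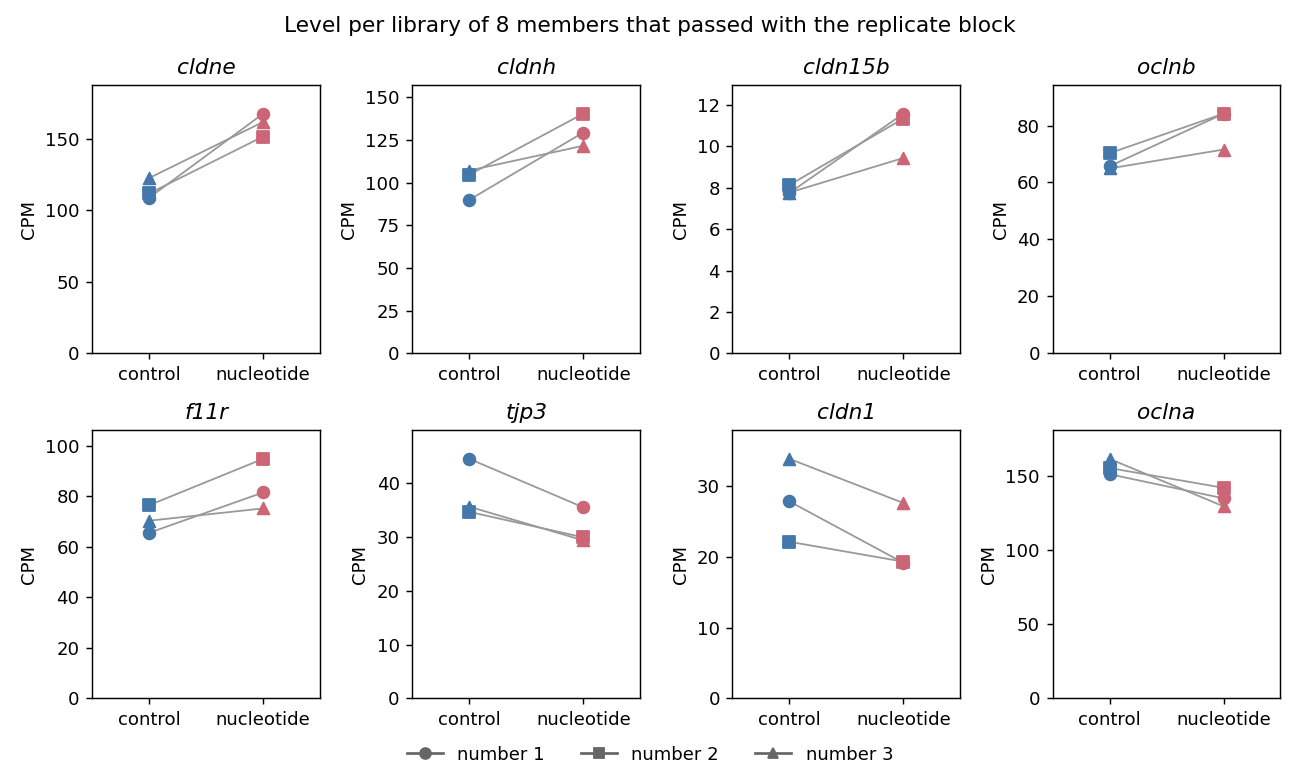
Level in CPM (linear axis from 0) of 8 genes that passed with the replicate block, in each library; marker shapes give the replicate number and lines join same-numbered libraries. In each panel all 3 lines run the same way, upward for cldne, cldnh, cldn15b, oclnb and f11r and downward for tjp3, cldn1 and oclna. The genes were chosen by the fit blocked on these pairs, which favours such agreement.

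Of the 10 claudins grouped with the skin, 1 rose, 1 fell and 8 did not pass. The grouping of claudins by tissue is a working one from background knowledge, since the pools were whole animals. The group's median log2 difference was 0.17, or 0.039 with library totals. cldne, a claudin of the embryo's outer epithelium, was the member with the smallest p. Its level was 109, 112 and 123 CPM in control pools against 168, 152 and 162 CPM in nucleotide pools. Every nucleotide pool lay above every control pool. The means were 114 ± 7.23 and 160.5 ± 8.08 CPM (SD, n = 3 each), a log2 difference of 0.49 ± 0.0936 (SE), or 1.40-fold. The edgeR adjusted p was 0.0647 without the block and 0.000612 with it, and DESeq2 gave 0.000459. The authors' deposited table, for which the processing notes name DESeq2, lists cldne at the same adjusted p of 0.000459. It rests on the same counts and is not separate support. cldne is the only 1 of the 35 members with an adjusted p there that lies under 0.05. Of all claudin CPM, cldne made up 9.70%, 9.67% and 9.57% in control pools against 13.7%, 11.3% and 12.2% in nucleotide pools. These shares did not overlap between the groups, but they rest on the same cldne levels and are not a separate observation.

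cldn1, whose mouse counterpart is needed for the water barrier of the skin, went the other way. It stood at 27.8, 22.1 and 33.8 CPM in control pools against 19.2, 19.3 and 27.6 CPM in nucleotide pools. The groups overlapped, because nucleotide library 3 was above control library 2, but each nucleotide library was below the control library of its own number. The log2 difference was -0.34 ± 0.197 (SE) with an edgeR adjusted p of 0.476, and -0.35 ± 0.0885 with 0.0193 with the block. This fall was lost with the block when pair 1 or pair 3 was left out (adjusted p up to 0.121). Here and below, p-values with a pair left out come from fewer libraries and are not comparable with those from all pairs.

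Among the other skin claudins, cldnf, cldng, cldna and cldn7b were higher in all 3 same-numbered pairs, and cldn8 was lower in all 3, without passing. cldng had only 6 to 17 counts per library, and cldn7b differed by only 0.011 on the log2 scale in pair 3. Over all tested genes 25.7% were higher in every pair and 27.4% lower, and over the members 11 and 10 of 38 were. cldni, the claudin with the most reads, was at 237, 236 and 316.5 CPM in control pools against 228, 252 and 318 CPM in nucleotide pools. Its libraries of number 3 were the highest of each group, and the group difference was 0.015 ± 0.167 (SE) on the log2 scale. cldn7b followed the number more widely, with 64.0, 123.6 and 110.4 CPM in control pools against 75.0, 145.5 and 111.3 CPM in nucleotide pools. cldnb, whose promoter is widely used to mark the lateral line primordium, was at 77.7, 63.3 and 65.7 CPM in control pools against 64.2, 101.9 and 69.1 CPM in nucleotide pools. Nucleotide library 2 alone stood above the other 5, and the pairs did not share a direction.

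Summed keratinocyte markers overlapped between the groups. The 23 matched genes took 1.159% to 1.714% of counts in control pools against 1.105% to 1.757% in nucleotide pools, and none had 0 counts throughout. In the unblocked fit 0 of the 23 passed, and with the block 7 rose and 1 fell. Over all tested genes 10.7% rose and 8.38% fell with the block, shares that also stand beside the marker lists below. For the 19 ionocyte markers, of which 5 rose and 1 fell with the block, the shares were 0.1116% to 0.1335% and 0.1142% to 0.1273%. These are shares of raw counts. On the TMM scale used for cldne, keratinocyte markers summed to 11230 to 16520 CPM in control pools against 11470 to 19250 CPM in nucleotide pools. The ionocyte sums there were 1050 to 1287 CPM against 1144 to 1395 CPM, and both sums overlapped between the groups. The part of either marker list in the difference of cldne was not tested.

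Of 5 claudins grouped with the gut, 1 rose, 0 fell and 4 did not pass with the block. At an unadjusted p under 0.05 in the unblocked fit, cldn15b was the only gut claudin. Claudin 15 forms a cation pore in the mammalian intestine. cldn15b had 7.75, 8.14 and 7.77 CPM in control pools against 11.6, 11.35 and 9.44 CPM in nucleotide pools, with no overlap. The log2 difference was 0.45 ± 0.135 (SE), or 1.37-fold, with an edgeR adjusted p of 0.192, and 0.0237 with the block. With the block and a pair left out it passed only without pair 3 (adjusted p between 0.0368 and 0.0781). Its co-named copy cldn15a was at 32.5, 37.4 and 28.6 CPM in control pools against 29.7, 33.4 and 20.5 CPM in nucleotide pools, lower in every pair without passing (-0.24 ± 0.187 SE). cldn15la, whose promoter is used to label the gut epithelium, was at 65.7, 53.4 and 84.5 CPM in control pools against 79.1, 70.7 and 72.7 CPM in nucleotide pools. Its control libraries spread more widely than its nucleotide libraries and enclosed them. The 16 matched enterocyte markers took 0.3226% to 0.5344% of counts in control pools against 0.3388% to 0.4089% in nucleotide pools, and 1 rose and 1 fell with the block. On the TMM scale they summed to 3035 to 5150 CPM in control pools against 3517 to 4480 CPM in nucleotide pools, which overlap.

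No claudin of the nervous system, vessels and ear passed in either fit, 8 genes in all, and at an unadjusted p under 0.05 in the unblocked fit there was none either. Their log2 differences lay between -0.26 and 0.15, with a median of 0.045, or -0.082 with library totals. cldnk, a claudin of myelinating glia, was at 28.1, 24.5 and 34.8 CPM in control pools against 26.9, 19.8 and 26.3 CPM in nucleotide pools. It was lower in all 3 pairs, with overlapping groups and an adjusted p of 0.0589 with the block (0.528 without it). cldn5b, expressed in vessels, was at 21.7, 20.5 and 20.8 CPM in control pools against 16.1, 18.8 and 20.7 CPM in nucleotide pools. It too was lower in every pair, although by only -0.011 on the log2 scale in pair 3. For cldn5a, which seals the brain ventricles in the embryo, the log2 difference was 0.080 ± 0.149 (SE). cldn11a and cldn11b, counterparts of the mammalian myelin claudin, differed by 0.10 ± 0.0994 and 0.14 ± 0.131 (SE), and cldn11b showed no overlap between groups that lay close together, 7.83 to 9.19 CPM in control pools against 9.35 to 10.1 CPM in nucleotide pools. cldnj, needed for otolith growth in the ear, differed by 0.0096 ± 0.102 (SE). cldn12 was higher in all 3 pairs (0.15 ± 0.129 SE), and cldn19 in 1 of 3 (0.0084 ± 0.131 SE). The 12 matched myelin markers summed to 421.2 to 439 CPM in control pools against 409.1 to 459.1 CPM in nucleotide pools, and the 17 vascular markers to 537.2 to 640.8 CPM against 537.5 to 592 CPM, on the same TMM scale as the genes. Both sums overlapped between the groups. As shares of the raw counts of a library they did not, with 0.04371% to 0.04556% against 0.04084% to 0.04221% for myelin and 0.05709% to 0.0665% against 0.05367% to 0.05403% for vessels. With the block 1 myelin marker rose, 2 fell and 1 vascular marker fell.

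The remaining 6 claudins included cldnh, listed by RefSeq as cldn3c, which rose. It was at 89.9, 105 and 107 CPM in control pools against 129, 140.3 and 122 CPM in nucleotide pools, again with no overlap. The means were 100.5 ± 9.29 and 130.4 ± 9.44 CPM (SD, n = 3 each), a log2 difference of 0.38 ± 0.105 (SE), or 1.30-fold. Its edgeR adjusted p was 0.175 without the block and 0.00495 with it, and with the block it passed without any 1 of the pairs (up to 0.00535). In the authors' deposited table its adjusted p is 0.0542. The row named cldn17, listed by RefSeq as cldn8.3, had the widest difference of any member, -0.83 ± 0.313 (SE), from counts of 33, 31 and 45 in control pools against 36, 17 and 23 in nucleotide pools. At this depth it did not pass, with an adjusted p of 0.28 in the unblocked fit and 0.0811 with the block, and the log2 difference was -0.16 in pair 1 against -1.22 in each of the others. cldn2, a cation pore of leaky epithelia in mammals, differed by 0.081 ± 0.239 (SE), and cldn10b by -0.024 ± 0.185. cldn10a had 4 to 16 counts per library and cldnd 0 to 9, which left both untested.

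**Figure D2:**
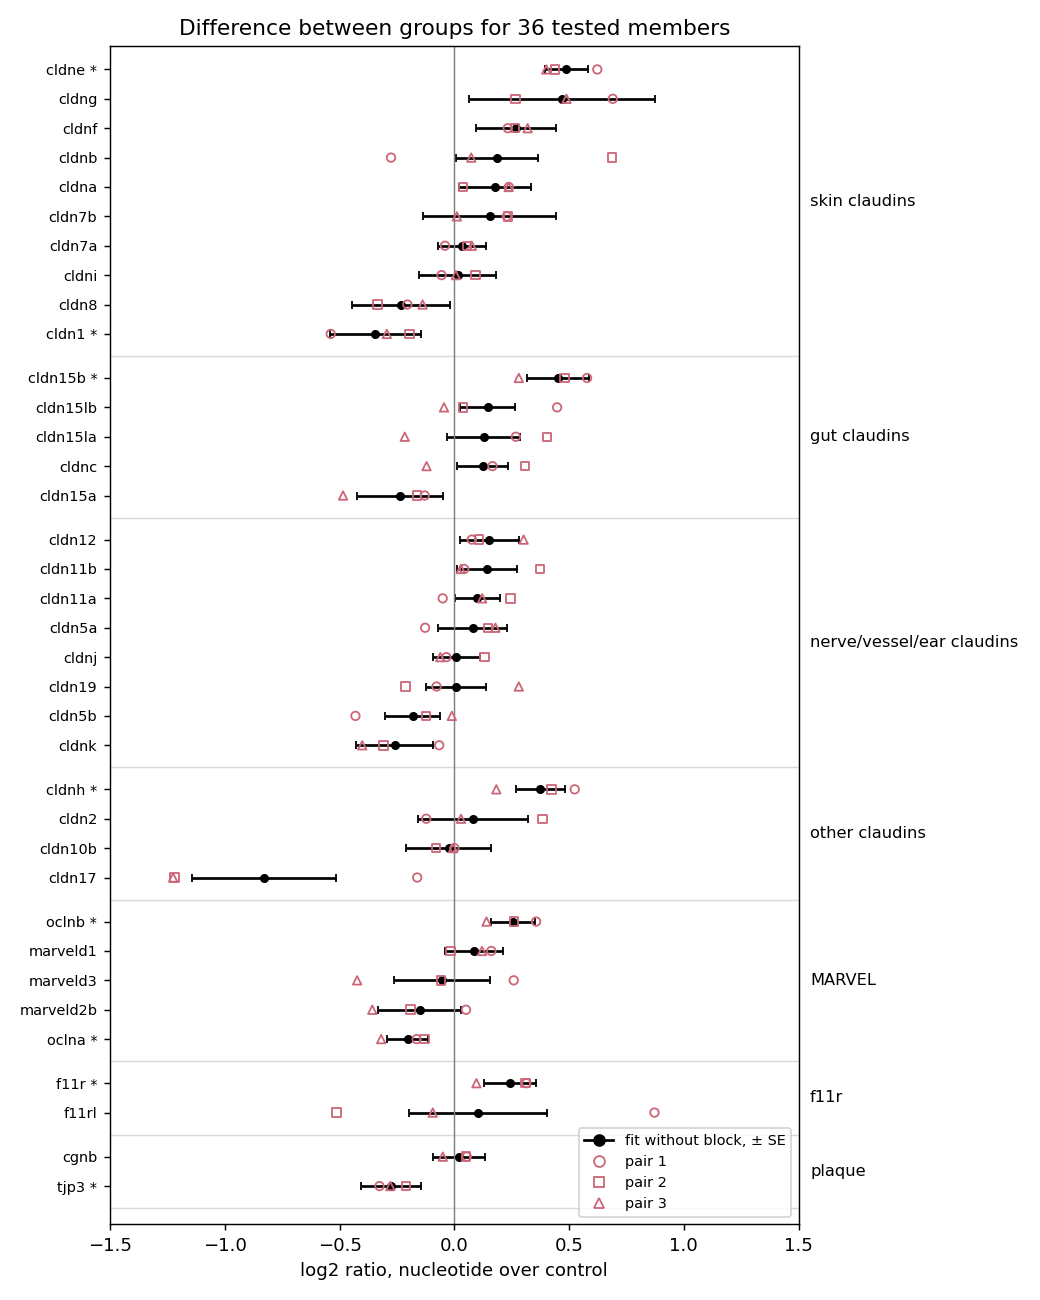
Difference between the groups on the log2 scale (nucleotide over control) for 36 of the tested members, ordered by role; black points with bars are the unblocked fit ± SE, open markers the ratio within each same-numbered pair (0.01 CPM added to each level), and an asterisk marks genes that passed with the block. Most points lie within 0.3 of 0, and for cldn17 pair 1 lies apart from the other pairs.

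Many claudins lie side by side in the genome. In the RefSeq gene order of the GRCz12tu assembly, cldnj, cldne, cldnf and cldna are a run of 4 adjacent protein-coding genes. Along it the log2 differences were 0.0096 ± 0.102, 0.49 ± 0.0936, 0.27 ± 0.175 and 0.18 ± 0.157 (SE), and only cldne passed with the block. A further run of 7 adjacent claudins holds 4 members. Of these cldnh stood at 0.38, cldnc at 0.12 ± 0.111 and cldnb at 0.19 ± 0.180 (SE), and cldnd was too low to test. In a run of 3 adjacent claudins, cldn17 stood at -0.83 ± 0.313 and cldn8 at -0.23 ± 0.214 (SE), and neither passed. Whether neighbours differ from each other was not tested. Neighbouring claudins are related genes, and how reads that match several copies were counted is not given in the sources used here, so values of single copies are uncertain where their sequences are shared.

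Among the MARVEL-domain genes the occludin copies parted, with oclnb rising and oclna falling. oclnb was at 65.7, 70.3 and 64.9 CPM in control pools against 84.1, 84.2 and 71.6 CPM in nucleotide pools. All nucleotide pools were above all control pools, library 3 by the least. The log2 difference was 0.26 ± 0.0977 (SE), or 1.19-fold, with an edgeR adjusted p of 0.284, and 0.0204 with the block. oclna was at 151, 156 and 162 CPM in control pools against 135, 142 and 129.7 CPM in nucleotide pools. Here all nucleotide pools were below all control pools. Its log2 difference was -0.20 ± 0.0878 (SE), with an adjusted p of 0.342, and 0.048 with the block. With the block and a pair left out, the log2 difference stayed between -0.241 and -0.147 for oclna and between 0.209 and 0.309 for oclnb. The call of oclna was then lost whichever pair was left out (0.0846 to 0.153), and oclnb passed only without pair 3 (0.0196, otherwise up to 0.0951). Fewer libraries entered these fits, so the lost calls cannot be put down to single pairs.

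The other MARVEL genes did not pass. marveld2b, for tricellulin, which seals the corners where several cells meet, was at 23.9, 28.3 and 21.3 CPM in control pools against 24.8, 24.8 and 16.6 CPM in nucleotide pools. In RefSeq order it is the neighbour of oclnb, and its log2 difference was -0.15 ± 0.180 (SE). marveld3 stood at -0.052 ± 0.209 and marveld1 at 0.088 ± 0.126 (SE).

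f11r, listed by RefSeq as f11r.1, is named for the junctional adhesion molecule A of mammals. It was at 65.5, 76.4 and 70.3 CPM in control pools against 81.5, 94.8 and 75.2 CPM in nucleotide pools. The groups overlapped, since control library 2 lay above nucleotide library 3, but all 3 pairs were higher with nucleotides. The log2 difference was 0.24 ± 0.113 (SE), or 1.18-fold, with an edgeR adjusted p of 0.376, and 0.028 with the block. With the block and a pair left out it passed only without pair 3 (0.0169 to 0.137). Its neighbour f11rl had 33 to 74 counts per library and no common direction over the pairs.

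Of the 4 plaque genes, whose proteins lie inside the membrane, 2 fell with the block, 0 rose and 2 did not pass. Their median log2 difference was -0.21, or -0.33 with library totals. tjp3, for zonula occludens protein 3, was at 44.5, 34.7 and 35.6 CPM in control pools against 35.5, 29.9 and 29.4 CPM in nucleotide pools. Number 1 was the higher library in each group, so the groups overlapped while each pair was lower with nucleotides. The log2 difference was -0.28 ± 0.131 (SE), with an adjusted p of 0.384, and 0.0209 with the block. With the block and a pair left out tjp3 passed only without pair 2 (0.0317 to 0.101). cgnb, for cingulin, differed by 0.022 ± 0.114 (SE).

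Over the 38 tested members, groups did not overlap for 5 with the nucleotide pools higher (cldne, cldnh, cldn15b, cldn11b and oclnb) and for 4 with them lower (oclna and cldn17 among them). The shares over all tested genes were 11.5% and 9.89%.

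**Figure D3:**
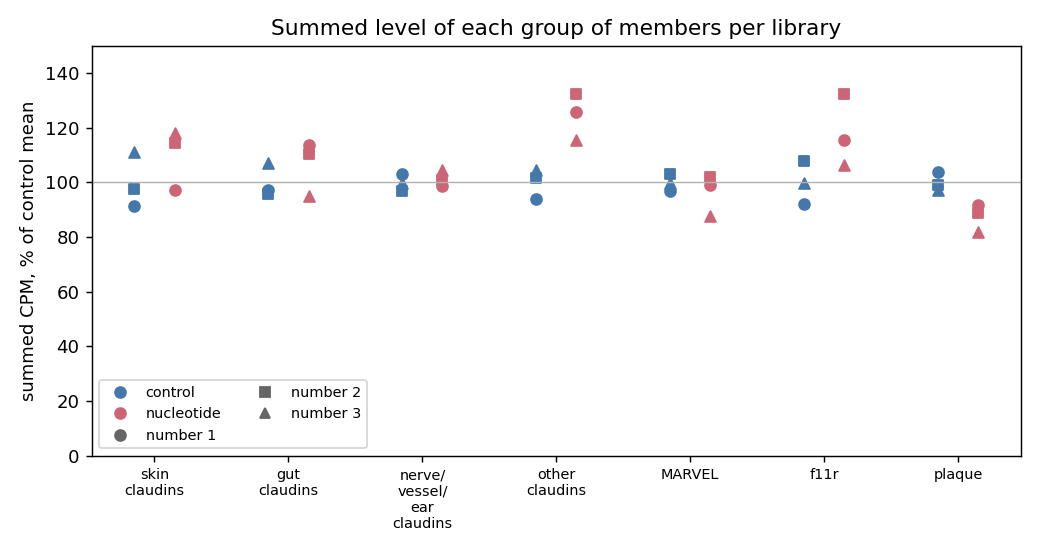
Summed CPM of each group of members per library, as a percentage of its control mean (axis from 0); colours give the group and shapes the replicate number. The plaque genes lie between 81.8% and 91.7% in the nucleotide libraries and between 97.1% and 103.9% in control, the remaining claudins (led in this sum by cldnh) lie between 115.6% and 132.4% against 93.8% to 104.4%, and the skin, gut, nervous system, MARVEL and f11r sums overlap.

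Summed over all members, the level was 1682, 1734 and 1838 CPM in control pools against 1779, 1913 and 1823 CPM in nucleotide pools, which overlap. Summed plaque genes stood at 235, 224 and 219.7 CPM in control pools against 207, 201 and 185 CPM in nucleotide pools. The claudin sum was 1122, 1158 and 1281 CPM in control pools against 1225, 1345 and 1327 CPM in nucleotide pools, with control library 3 above nucleotide library 1.

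The ratio of co-named copies within a library does not depend on how libraries are scaled. It was computed for 7 pairs of genes named a and b of which both were tested, and 6 of them are described. oclnb over oclna was -1.20, -1.15 and -1.32 (log2 ratio of counts) in control pools against -0.68, -0.76 and -0.86 in nucleotide pools. The gap between the groups exceeded the range within each, with means of -1.22 ± 0.0868 and -0.77 ± 0.0877 (SD, n = 3 each). cldn15b over cldn15a went from -2.05 ± 0.161 to -1.34 ± 0.223 (SD, n = 3 each), a shift of 0.71, with the 3 same-numbered pairs at 0.71, 0.64 and 0.77. The exact permutation test (2-sided), which does not use the pairing by number, gave p = 0.1 for each of these ratios. That is the smallest value that 3 against 3 allows, and it became 0.175 after Benjamini-Hochberg adjustment over the 7 ratios. Both ratios rest on the same counts as the levels of oclna, oclnb, cldn15a and cldn15b above and are not a separate observation. cldn5b over cldn5a (shift of -0.25) reached the same exact p, but its groups nearly touched. The lowest control value was -0.109 and the highest nucleotide value -0.1198. For cldn7, cldn11 and cldn15l the ratios overlapped, with exact permutation p of 0.8, 0.5 and 1.0. Ratios of counts between genes also depend on their lengths, so only the shift between groups is read here.

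**Figure D4:**
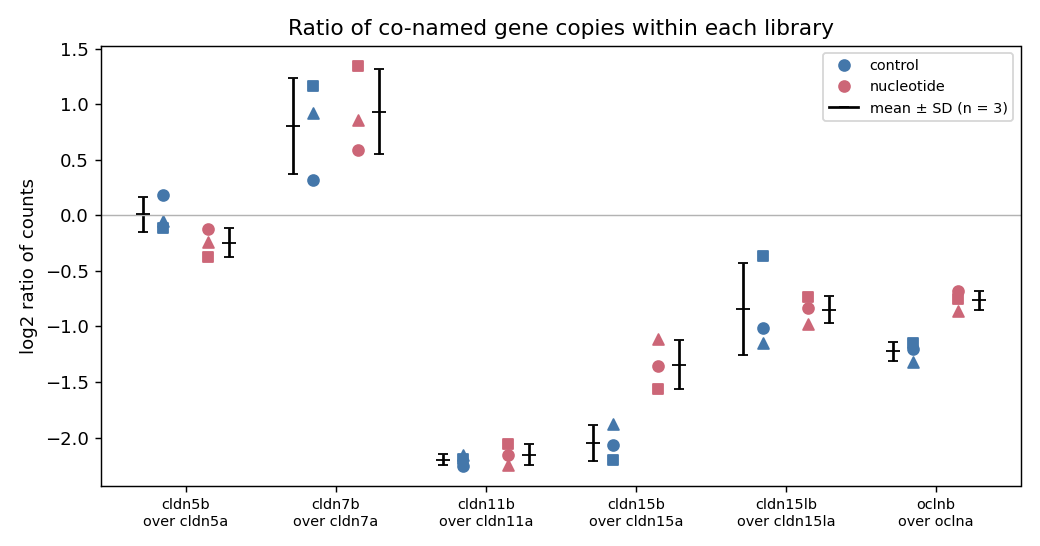
Log2 ratio of counts of the b copy over the a copy within each library for 6 of the 7 co-named pairs; colours give the group, shapes the replicate number, and bars the mean ± SD (n = 3). The groups separate for cldn15 and occludin, nearly touch for cldn5, and overlap for cldn7, cldn11 and cldn15l.

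Partner genes of the junction, from lists of receptors, polarity scaffolds, regulators and desmosome genes, were compared in the same fits. None of them passed in the unblocked fit. Summed over these lists, 6 of 66 tested entries rose and 9 fell with the block, against 10.7% and 8.38% of all tested genes. The single lists below are small, and their differences from those shares were not tested. Of 15 tested adhesion receptors 0 rose and 3 fell with the block, with a median of -0.10. They included lsr, for the lipolysis-stimulated receptor that recruits tricellulin in mammals (-0.22 ± 0.0654 SE, edgeR adjusted p = 0.0342), and pvrl1b, a nectin gene (-0.39 ± 0.0731 SE, 0.00401). Of 25 polarity scaffolds 1 rose and 4 fell. On the TMM scale the scaffolds summed to 1224 to 1249 CPM in control pools against 1168 to 1204 CPM in nucleotide pools, without overlap. The sums of the receptor, regulator and desmosome lists overlapped on that scale. As shares of raw counts the receptor and desmosome lists overlapped too. The regulators there took 0.3359% to 0.3536% in control pools against 0.3239% to 0.3358% in nucleotide pools, lower and only just without overlap. lin7c, of the Crumbs-associated scaffold, stood at 0.32 ± 0.0694 (SE), whereas pard3, a polarity scaffold, stood at -0.30 ± 0.0785 and crb2b, a Crumbs protein, at -0.41 ± 0.0975, each with an edgeR adjusted p under the threshold (0.00889, 0.0212 and 0.0132). Of 18 regulators of the junction and its actin belt 4 rose and 0 fell, among them ctnna1, for alpha-catenin (0.33 ± 0.0669 SE, edgeR adjusted p = 0.00589), and rab13, a GTPase of junction traffic (0.37 ± 0.111 SE, 0.0378). Of 8 desmosome genes 1 rose and 2 fell. The 14 kidney tubule markers matched, a tissue with tight junctions of its own, had 2 rises and 3 falls, and summed to 925 to 1119 CPM in control pools against 941.3 to 1057 CPM in nucleotide pools. The kidney sums overlapped on this TMM scale, whereas the shares of raw counts, at 0.09829% to 0.1161% against 0.09398% to 0.09645%, did not.

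Same-numbered libraries deviated together in these genes. Over the 35 members with a mean of at least 100 counts, deviations of log2 CPM from the group mean correlated at 0.579, 0.644 and 0.716 between libraries numbered 1, 2 and 3, and at -0.497 to -0.0944 between differently numbered libraries. These are descriptions across genes, which share libraries, and because deviations within a group sum to 0, the negative values carry no separate information. The SE was smaller with the block for 37 of 38 members (97.7% of all tested genes), with a median of 0.0904 against 0.133. In cldn7b the 3 libraries stood in the same order in both groups, and number 3 was the highest of both groups for cldn1 and cldni.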

How the data were processed

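The authors deposited 1 table of whole-number read counts per gene for the 6 libraries, not normalized. Per the submitters' processing notes TopHat2, HTSeq, DESeq2 and GRCz10 were used. The annotation, the strand setting and multi-mapping are not given in these sources. Per the file headers the table also holds the authors' comparison, with a mean normalized count as signal, log2 fold changes, a Wald score and p-values. Of 14681 rows, 69 repeats were dropped.

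Counts were tested with edgeR 4.0.16 in R 4.3.3 (filterByExpr with a minimum count of 10 and total of 15, TMM, quasi-likelihood F test, 2-sided, Benjamini-Hochberg over 13336 genes, threshold 0.05). SE is the log2 change over the square root of F. Deviations correlated at 0.546, 0.625 and 0.617 between same-numbered libraries over all tested genes, above 0.1 in each, which by the rule used pairs the pools by number. That pairing comes from the counts, and the labels state no pairs. The library names carry numbers of their own, which are the same within pairs 2 and 3 and differ within pair 1. Alternatives were the replicate block, DESeq2 1.42.0, other scalings, no filter and single libraries left out. The fits were also run on simulated counts in which same-numbered libraries shared no deviations. That run therefore cannot check either fit on libraries that deviate together by number.

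Genes described in full passed in either fit or, in each group, had the most counts or smallest p, and the other members are given more briefly or were chosen after their values were seen. Up to 3 genes per partner list are named by smallest p without the block, and cell type lists are given by counts and shares. Members and lists were chosen with earlier results of these data known. All 40 members matched RefSeq (GRCz12tu) by gene number or synonym, 6 under another symbol. A few genes that these rules name are not reported here. No sequence was used.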

Additional observations from a re-analysis of the deposited data

How the results depend on the processing

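With the groups alone, no member passed under TMM, other scalings, no filter or any single library left out, so member counts of 0 higher and 0 lower became 1 and 0 only in DESeq2 and 5 and 4 with the replicate block. With the block and pair 1, 2 or 3 left out, 3, 2 and 7 members rose and 4, 3 and 1 fell. cldne kept its direction throughout. With the block it was 0.488 (adjusted p = 0.000612) and in DESeq2 0.489 (0.000459). With the block and pair 1, 2 or 3 left out it was 0.429, 0.512 and 0.532 (2.64e-05 to 0.00239). Without pair 2 the edgeR adjusted p of cldne was smaller than with all pairs, although its SE was larger (0.103 against 0.0671). Adjusted p-values with a pair left out, from fewer libraries, are therefore not comparable with those from all pairs. Without the block and with a library left out cldne ran from 0.453 to 0.54 (adjusted p of 0.115 to 0.301). Of the 9 calls with the block, 3 stayed under the threshold without each pair, cldne and cldnh among them, with the same limit on these p-values. Over all genes, 125 were higher and 7 lower without the block, 1432 and 1118 with it, and 398 and 101 in DESeq2. Single libraries left out gave 39 to 79 higher and 0 to 2 lower without the block. Pair 1, 2 or 3 left out with the block gave 1265, 1150 and 1010 higher and 870, 862 and 661 lower. Upper quartile scaling gave 11 lower and library totals 18 lower (86 higher).

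Members near 0 that did not pass changed sign in places. With library totals 10 of the 38 tested members did, and with upper quartile scaling 4. Among those described in full, these were cldn11a (-0.026), cldn2 (-0.039), cldni (-0.12) and f11rl (-0.016) with library totals, and cldni (-0.013) with upper quartile scaling. Single libraries left out without the block changed the sign of 3 to 5 members each, and pair 1, 2 or 3 left out with the block that of 1, 4 and 2. Among those described in full the ranges without the block were -0.017 to 0.32 for cldn15la, -0.067 to 0.34 for cldn2, -0.13 to 0.17 for cldni and -0.085 to 0.30 for f11rl. With the block the changes among them were cldn2 (-0.051) and cldni (-0.024) without pair 2 and f11rl (-0.27) without pair 1. Of the other members, cldnb and cldnj changed sign without pair 2, and cldn19 and marveld3 without pair 3. Without the block, cldn7b, cldnb and marveld2b were among those that changed sign with a single library left out. The causes were not tested.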
